A study of Mus musculus with 6 samples.

Results

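Sparse methylated clusters are short runs of neighbouring CpG cytosines that stood at a high methylation level in 5 of the 6 libraries and held few cytosines for their length. They were selected on measured levels, among autosomal cytosines listed in all 6 libraries: neighbours at most 100 bp apart were joined, and runs of at least 5 cytosines were kept as clusters. A cluster was a member when it had fewer than 5 cytosines per 100 bp of span and a mean level of at least 80% over the 5 libraries other than the Dnmt1 knockdown. The rule gave 1290 members among 22524 clusters (5.73%), with 7407 cytosines. They were 54.0% of the 2389 clusters with that level. The other 1099, at 5 or more cytosines per 100 bp, are called dense methylated clusters here.

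The assay was reduced representation bisulfite sequencing (RRBS) of E14 cells, a line of mouse embryonic stem cells. RRBS cuts genomic DNA with MspI at CCGG and reads the cytosines near the cut ends after bisulfite conversion. Bisulfite changes unmethylated cytosines, while 5-methylcytosine and 5-hydroxymethylcytosine are both read as methylated. Cells carried short hairpin RNAs (shRNAs) against Dnmt1, against Dnmt3a, against Dnmt3a and Dnmt3b together, against Dnmt3b, or against Tet1 and Tet2 together, and the reference cells carried a control shRNA. Each of the 6 groups had 1 library. No difference below therefore has a replicate error or a test, and the degree of each knockdown is not given in the sources used here. An SD given with a mean is over clusters, or over the 19 autosomes where stated, and does not describe repeated cultures.

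In mammals most CpGs outside CpG islands are methylated. DNMT1 copies the methylation of the parental strand onto newly replicated DNA, DNMT3A and DNMT3B place methylation on unmethylated CpGs, and the TET enzymes oxidise 5-methylcytosine to 5-hydroxymethylcytosine and further products. Mouse embryonic stem cells express DNMT1, DNMT3A, DNMT3B, TET1 and TET2, so that maintenance, new methylation and oxidation run side by side.

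The letters around a member could be shown where its cytosines lay in the start region of an annotated gene. The files give mm9 positions and 5 letters around each cytosine, and the sequences at hand are RefSeq windows on GRCm38.p6 of 300 bases, 250 before and 50 after each annotated gene start. Members were therefore matched by letters and spacing, without converting positions. Of the 1240 members on chromosomes that have windows in the table, 5 matched (0.403%), each in 1 window. Dense methylated clusters matched in 7 of 1062 (0.659%), clusters at 20% to 80% in 55 of 2875 (1.91%) and clusters below 20% in 4028 of 16708 (24.1%). A match needed at least 5 cytosines inside 1 window, and members held a median of 5, against 9 over all clusters. The classes were thus not equally easy to match, and these shares do not measure how often each lies at a gene start. The 5 windows are given below from 5′ to 3′ in the direction of the gene, with the CpGs read in the member in capitals. They show which of a window's CpGs were read in a sparse member, and where these lie before or across the gene start.
Tex101: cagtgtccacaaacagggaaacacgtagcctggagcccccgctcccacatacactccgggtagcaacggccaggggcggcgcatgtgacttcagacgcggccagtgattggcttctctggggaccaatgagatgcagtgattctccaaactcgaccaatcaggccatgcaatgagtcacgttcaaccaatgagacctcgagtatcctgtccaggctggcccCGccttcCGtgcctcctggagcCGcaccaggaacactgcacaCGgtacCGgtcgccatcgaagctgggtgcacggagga
4930594O21Rik: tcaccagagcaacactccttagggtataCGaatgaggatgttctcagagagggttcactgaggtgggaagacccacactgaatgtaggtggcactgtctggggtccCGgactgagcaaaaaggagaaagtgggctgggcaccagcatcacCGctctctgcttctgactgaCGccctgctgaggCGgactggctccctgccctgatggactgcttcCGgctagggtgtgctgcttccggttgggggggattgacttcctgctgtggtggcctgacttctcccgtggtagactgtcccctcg
Gm40968: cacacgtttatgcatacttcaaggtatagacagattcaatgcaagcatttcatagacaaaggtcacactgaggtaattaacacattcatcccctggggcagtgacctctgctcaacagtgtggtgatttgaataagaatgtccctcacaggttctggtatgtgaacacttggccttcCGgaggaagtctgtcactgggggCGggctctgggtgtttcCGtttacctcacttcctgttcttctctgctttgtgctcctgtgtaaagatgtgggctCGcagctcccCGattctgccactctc
Gm41358: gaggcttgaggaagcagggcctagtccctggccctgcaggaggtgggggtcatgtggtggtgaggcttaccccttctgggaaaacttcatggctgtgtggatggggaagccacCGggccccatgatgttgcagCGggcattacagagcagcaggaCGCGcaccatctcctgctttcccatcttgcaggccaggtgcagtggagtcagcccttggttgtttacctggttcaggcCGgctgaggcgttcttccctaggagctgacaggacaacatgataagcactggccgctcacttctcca
LOC108167659: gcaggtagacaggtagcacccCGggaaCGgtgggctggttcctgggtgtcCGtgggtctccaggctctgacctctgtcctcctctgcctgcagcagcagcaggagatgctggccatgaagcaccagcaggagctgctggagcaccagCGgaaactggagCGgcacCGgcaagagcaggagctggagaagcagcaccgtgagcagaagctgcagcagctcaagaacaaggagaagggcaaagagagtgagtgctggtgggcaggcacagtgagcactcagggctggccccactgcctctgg
The windows lie at chr7:24672001-24672300 (Tex101, minus strand), chr3:37613663-37613962 (4930594O21Rik, plus strand), chr13:58797401-58797700 (Gm40968, minus strand), chr15:79308599-79308898 (Gm41358, plus strand) and chr1:92012613-92012912 (LOC108167659, minus strand). Tex101 is protein coding and encodes a membrane-anchored glycoprotein of male germ cells, and the other 4 are annotated as long noncoding RNA genes.

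The windows also qualify the word sparse, since it counts cytosines read and not CpGs in the DNA. The Tex101 window holds 19 CpGs, of which 5 were read, against a median of 7 CpGs over all 32851 windows. The window of 4930594O21Rik holds 9 CpGs, of which 6 were read. Gm40968 has 6, Gm41358 7 and LOC108167659 7, of which 5, 5 and 6 were read. The other members have no sequence at hand, so their CpG density in the genome was not measured. Nor were the members fully methylated: they averaged 88.6% in the control library, with cluster means from 75.2% to 98.3%.

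Most members began and ended with the ends of an MspI fragment. Their median span was 135 bp (quartiles 123 and 151 bp, range 101 to 650 bp), and a span over 100 bp follows from the rule. They held a median of 5 cytosines, exactly 5 in 784 members (60.8%) and at least 10 in 35. In 1000 members (77.5%) the first cytosine was in CCGG on the plus strand, the last in CCGG on the minus strand, and none between was in CCGG, compared with 460 dense clusters (41.9%). Both strands were read in 1239 members (96.0%), against 62.1% of dense clusters. Only 155 of 7252 CpG sites (2.14%) were read on both strands at the same CpG. Counting every cytosine listed in any library inside the spans, the median density was 4.17 per 100 bp, against 4.07 under the rule, and 96 members (7.44%) then had 5 or more per 100 bp.

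Near the limits of the rule the clusters were alike. The 3 members just inside the level limit, on chromosomes 12, 10 and 16, averaged 80% when rounded over the 5 libraries, and so did the 3 clusters just outside it. Their Dnmt1 knockdown levels were 6.77%, 17.7% and 16.4% inside and 19.6%, 12.9% and 25.9% outside. The 3 members just inside the density limit had 4.98, 4.97 and 4.97 cytosines per 100 bp, and the 3 methylated clusters just outside it had 5.00.

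The Dnmt1 library held the least methylation of the 6 in 1290 of 1290 members. Its level took no part in the rule on level, though a cytosine had to be listed in it. Nor was a low Dnmt1 level particular to members. Against control alone, the Dnmt1 library was lower in 1099 of 1099 dense clusters and in 2935 of 2938 clusters at 20% to 80%. Of all 22524 clusters it was lower in 70.6%. Members averaged 21.5% ± 8.4 (SD, n = 1290 clusters) in the Dnmt1 knockdown and 88.6% ± 3.6 in control, so the Dnmt1 level was 24.3% of the control level. The difference was -67.1 percentage points, with an SD of 1.42 over the 19 autosomes, and it was negative on all 19. Cluster levels in the Dnmt1 library ran from 5.30% to 68.9%, with a median of 20.2%, while in control no member was below 75.2%. These ranges did not overlap, but control entered the level rule, which keeps its levels high in members. In dense clusters the ranges overlapped, with up to 89.2% in the Dnmt1 library and from 69.1% in control. A member was called lower when its mean fell by 20 points or more and 80% or more of its cytosines went that way, and likewise for higher. By this call 1289 of 1290 members were lower and 0 higher, where the same call took 22.9% of all clusters as lower and 0% as higher. A member starts high and a low cluster cannot fall by 20 points, so the count says little beyond the level.

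Levels in the other libraries were part of the rule and are given as a description. Members averaged 82.2% ± 6.0 in the Dnmt3a knockdown, 84.6% ± 5.0 in the double knockdown of Dnmt3a and Dnmt3b, 88.9% ± 3.4 in the Dnmt3b knockdown, 89.9% ± 3.2 in the Tet1 and Tet2 knockdown and 88.6% ± 3.6 in control (SD, n = 1290 clusters each). Dense methylated clusters gave nearly the same series: 23.3% for Dnmt1, 82.8%, 85.2%, 89.5% and 90.4% for the other knockdowns in that order, and 89.3% in control.

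**Figure D1:**
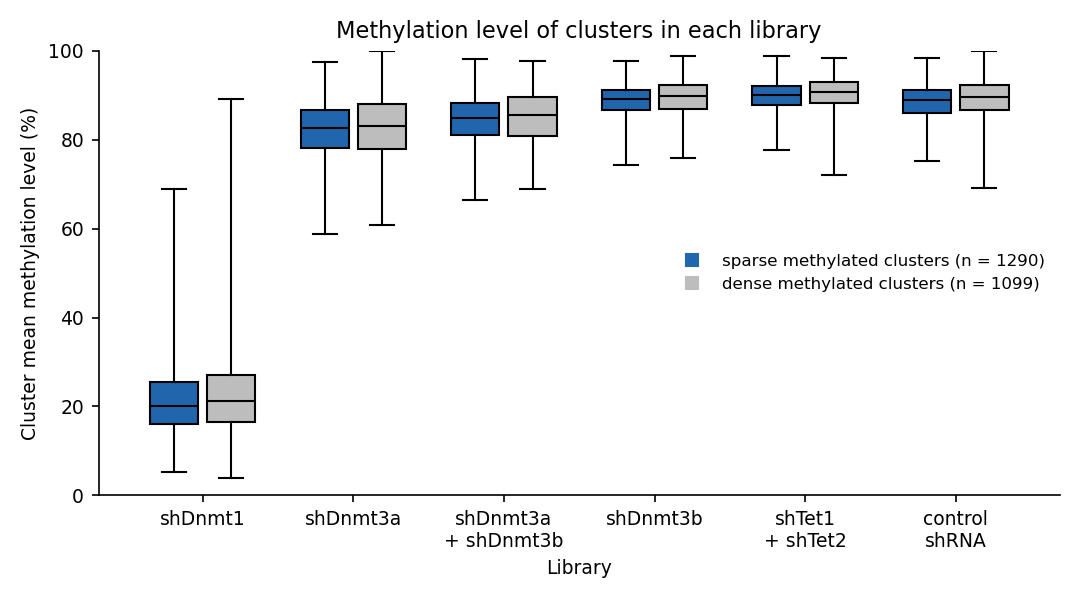
Cluster mean methylation level (%, vertical axis) in the 6 libraries, for 1290 sparse and 1099 dense methylated clusters: boxes span the quartiles, lines mark medians and whiskers reach the lowest and highest cluster. The Dnmt1 boxes lie near 20% and all other boxes near or above 80%, with the sparse and dense classes side by side at almost the same height.

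The members kept unequal amounts of methylation after Dnmt1 knockdown. Between 10% and 30% remained in 1100 members (85.3%), under 10% in 40 (3.10%) and at least 30% in 150 (11.6%). Of dense clusters, 188 of 1099 (17.1%) kept at least 30% and 35 (3.18%) had under 10%, and of all 22524 clusters 396 (1.76%) kept at least 30%. At least 50% remained in 14 members and in 35 dense clusters. Mean levels of sparse and dense clusters differed by -1.81 points, less than the SD of 2.59 points of that difference over autosomes.

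**Figure D2:**
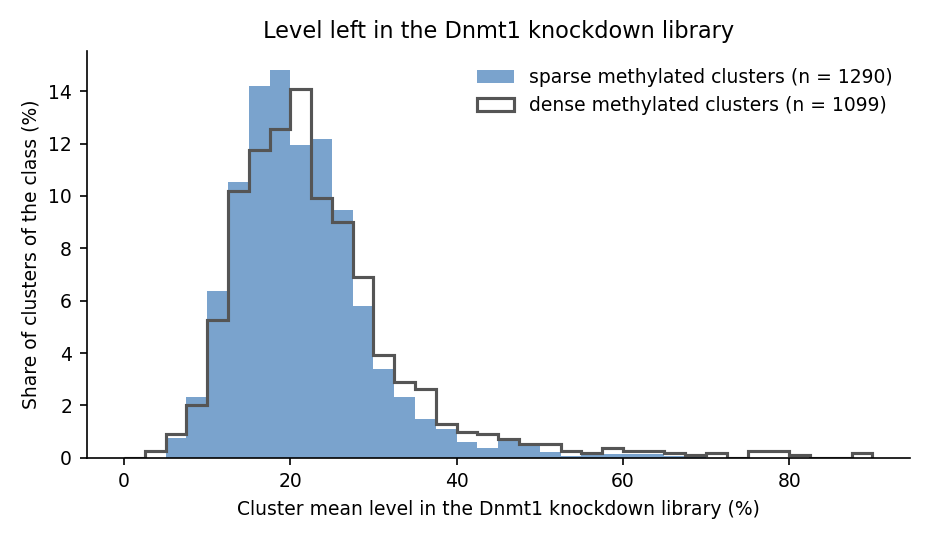
Distribution of cluster mean levels in the Dnmt1 knockdown library (%, horizontal axis) as the share of each class (%, vertical axis), for 1290 sparse (filled) and 1099 dense methylated clusters (outline). Both peak near 20%, and the tail above 30% holds 11.6% of sparse and 17.1% of dense clusters.

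The remaining level was higher where the other 5 libraries were higher. Members at 80% to 84% over those libraries averaged 17.2% ± 5.9 in the Dnmt1 library (SD, n = 320 clusters), those at 84% to 88% averaged 20.1% ± 7.1 (n = 446), those at 88% to 92% averaged 23.6% ± 6.9 (n = 439) and those above 92% averaged 34.6% ± 12.4 (n = 85). The order of these means was low to high throughout, but each neighbouring pair of bins overlapped within 1 SD over clusters. Dense clusters in the same bins averaged 18.5%, 20.3%, 24.6% and 35.1%. Over the 1290 members Pearson's r between the Dnmt1 level and the mean of the other 5 libraries was 0.492 (Spearman's rho 0.497), with control alone 0.403. Density within the sparse range had no such relation, with r of 0.011: the 323 members of lowest density averaged 21.1% in the Dnmt1 library, and the 317 of highest density averaged 21.7%.

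**Figure D3:**
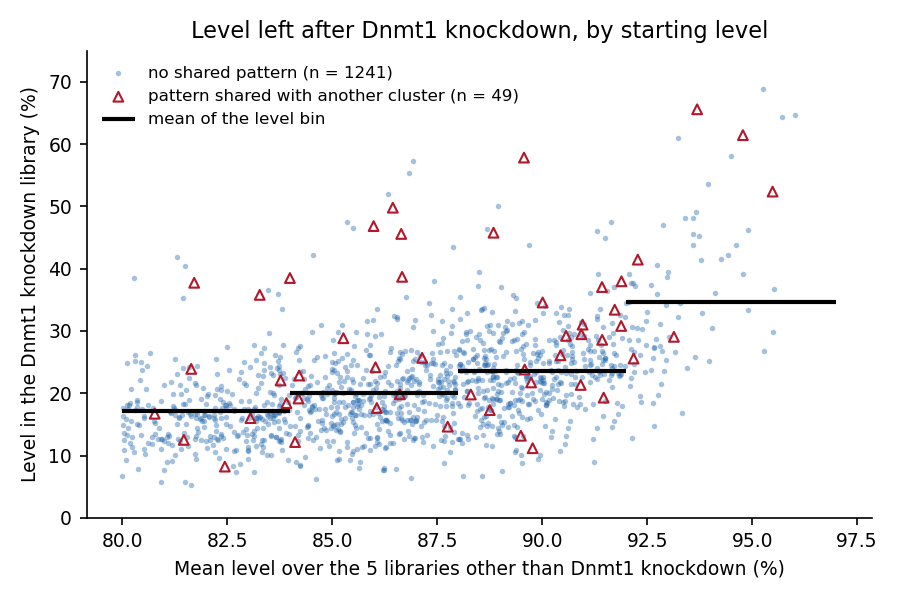
Level in the Dnmt1 knockdown library (%, vertical axis) against the mean level over the other 5 libraries (%, horizontal axis) for each member, with bars at the bin means of 17.2%, 20.1%, 23.6% and 34.6%. Triangles are the 49 members whose pattern of letters and spacing recurs in another cluster, and they include several of the highest points.

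The members with the highest mean level left in the Dnmt1 library were on chromosomes 10, 8 and 13. The 5 highest Dnmt1 levels were 68.9% at chr10:75515281-75515398, 65.6% at chr8:29132850-29132979, 64.6% at chr13:18207355-18207485, 64.3% at chr8:63275318-63275452 and 61.5% at chr13:50963873-50964001 (mm9). Control stood at 96.2%, 95.2%, 94.1%, 96.3% and 95.3% at these clusters, above the mean of the members. The patterns of letters and spacing at chr8:29132850-29132979 and chr13:50963873-50964001 recurred in 2 and 1 other clusters. In 4 of the 5 a single cytosine read 100% in all 6 libraries. Without that cytosine their Dnmt1 levels were 61.1% on chromosome 10, 55.8% and 53.7% on chromosome 13 and 55.4% at the second cluster on chromosome 8. The 5 means also joined unlike strands. In the Dnmt1 library every cytosine of 1 strand read at least 58.3% at each cluster, and none of the other strand exceeded 38.5%. The lower strand was the plus strand at the second chromosome 8 cluster and on chromosome 10, where it held 1 cytosine. At the others it was the minus strand. Control read at least 88.3% at every cytosine of the 5 clusters. These 5 were named because they were extreme, so their levels overstate what a repeat would show, and the same holds for all clusters named as extremes below.

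Cytosines at 100% in all 6 libraries were rare. There were 18 among 7407 (0.243%), in 16 members. Such a cytosine raises the Dnmt1 mean of a short cluster by itself, and the mean of the other 5 libraries too. The counts, level bins and r values above include these cytosines, and 8 of the 14 members at 50% or more hold one. The members that hold one are therefore also described without it here. Without these cytosines the 16 members averaged 40.3% in the Dnmt1 library (range 23.2% to 61.1%) and 91.2% in control, and 12 kept at least 30% and 5 at least 50%. With them the means were 51.5% and 92.9%, and 16 kept at least 30% and 8 at least 50%. Why they read 100% was not tested.

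A single member missed the Dnmt1 call, at chr19:39545481-39545636 (mm9), with 57.8% in the Dnmt1 knockdown and 91.3% in control. The pattern of letters and spacing of this member recurred in 47 other clusters, the most of any member. Its level therefore cannot be assigned to this position alone. The Dnmt1 knockdown levels along its 7 cytosines were 45.5%, 100%, 100%, 100%, 37.5%, 9.4% and 12.5%, against 77.7%, 100%, 100%, 100%, 85.4%, 90.7% and 85.4% in control. The 3 cytosines at 100% stood at that value in all 6 libraries, and the other 4 were each lower in the Dnmt1 library.

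Members whose letters recur elsewhere kept more methylation. For 49 members (3.80%), at least 4 cytosines had the same letters and spacing in another cluster, a property looked at after the values were seen. They averaged 29.4% ± 13.6 in the Dnmt1 library (SD, n = 49 clusters), and 19 of them (38.8%) kept at least 30%. The other 1241 averaged 21.2% ± 8.0, and 131 of them (10.6%) kept at least 30%. Control levels were 89.4% and 88.6% in these sets. A pair of loci, also picked after the values were seen, held 9 members that all kept at least 30%. Some of those on chromosome 9 were not among the 49. The 6 on chromosome 9 between 3000852 and 3038257 had Dnmt1 levels of 35.2% to 49.8% (mean 42.3%, control 85.7%), and the 3 on chromosome 2 between 98502422 and 98507412 had 37.7% to 45.8% (mean 43.0%, control 86.6%). Reads of near-identical copies may be placed at any of them, so a level at such a cluster cannot be assigned to its position alone. The member with most cytosines in all, 23 at chr2:98506763-98507412, belonged to the chromosome 2 locus and read 45.6% in the Dnmt1 knockdown and 86.8% in control. The next had 17 cytosines at chr8:91188121-91188730, and it read 14.4% in the Dnmt1 knockdown and 84.7% in control. A pair of members tied at 14 cytosines. Of these, chr12:113848536-113848999 read 15.4% in the Dnmt1 knockdown and 85.95% in control, while chr9:35112827-35113167, whose pattern recurs in 13 other clusters, read 38.5% in the Dnmt1 knockdown and 85.99% in control.

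At the other end, 5 members were nearly emptied. The lowest Dnmt1 levels were 5.30% at chr15:99063177-99063282, 5.80% at chr17:28663260-28663402, 5.81% at chr17:27238549-27238695, 6.24% at chr2:26179370-26179496 and 6.38% at chr4:153576745-153576922 (mm9). Control stood at 92.5%, 82.0%, 84.6%, 88.8% and 88.5% there. The chromosome 15 cluster also had the largest fall of all members, by 87.2 points. Next came chr7:27999411-27999512, at 9.38% in the Dnmt1 knockdown and 95.7% in control, and chr15:75885037-75885177, at 8.08% and 93.4%.

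Single cytosines varied more within a member in the Dnmt1 library than in the others. The mean SD over the cytosines of a member was 9.45 points for Dnmt1, 7.29 for Dnmt3a, 6.90 for the double knockdown, 5.61 for Dnmt3b, 5.31 for Tet1 and Tet2 and 5.44 for control. Of the 7407 cytosines, 14.6% read under 10% and 1.73% read 0 in the Dnmt1 library, and 252 (3.40%) were above 50%. In control, 3 were below 50%. Levels near the middle of the scale carry more counting error than levels near its ends, and the depth behind these fractions is unknown, so the share of this spread that is counting error was not measured.

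Reads of the plus and of the minus strand come from separate molecules, and they gave the same mean but different rankings. In the 234 members with at least 3 cytosines on each strand, the Dnmt1 library averaged 21.5% on the plus and 21.7% on the minus strand, and the difference between strands had an SD of 15.4 points over members. Control averaged 88.4% and 88.3%, with an SD of 5.56 points. Across these members r between the strands was 0.052 in the Dnmt1 library, 0.415 in the Dnmt3a library and 0.194 in control. The ranking of members by Dnmt1 level on the plus strand was thus not seen again on the minus strand, and counting error of unknown size lowers each of these r values.

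The relation between the Dnmt1 level and the other libraries was seen within a strand, and little or none of it across strands. Over the same 234 members, the Dnmt1 level of the plus strand had r of 0.495 with the mean of the other 5 libraries on the plus strand and 0.004 with their mean on the minus strand. For the minus strand r was 0.529 with the same strand and 0.126 with the opposite one. The mean of the 5 libraries itself had r of 0.231 between strands. Both measures of a strand share its letters, its MspI end and its read positions. At the 155 CpGs read on both strands, the strands lay at least 20 points apart in 28 (18.1%) in the Dnmt1 library and in 1 in control. Strand means there were 23.3% and 24.1% in the Dnmt1 library and 89.3% and 89.5% in control. Control thus had little room above its mean for such a gap. Over these CpGs r between the strands was 0.352 in the Dnmt1 library and 0.262 in control.

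Loss in the Dnmt3a library was small at these clusters and widespread. Members averaged -6.40 points from control, with an SD of 4.45 over clusters and 0.46 over autosomes. They were lower in 1225 of 1290 (94.96%) and on all 19 autosomes, from -5.51 points on chromosome 6 to -7.45 on chromosome 19. Of dense clusters 92.4% were lower, and of all 22524 clusters 68.7%. Past 20 points 4 members were lower, where the call took 3.36% of all clusters, and 0 were higher, where it took 0%. At 10 points there were 267 (20.7%), where it took 14.1%. Both libraries entered the rule, which keeps out clusters that lost much, so nothing is read from these shares. Dense clusters averaged -6.54 points, and clusters at 20% to 80% averaged -15.7.

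Of the 4 members lower by 20 points in the Dnmt3a library, the chromosome 15 cluster described above fell most. It read 64.6% in the Dnmt3a knockdown, 74.1% in the double knockdown, 93.1% in the Dnmt3b knockdown, 83.9% in the Tet1 and Tet2 knockdown and 92.5% in control. The second, chr11:75259470-75259584, read 58.8% in the Dnmt3a knockdown and 84.8% in control, and the third, on chromosome 18, read 67.0% and 88.4%. The last, chr8:114595570-114595717, which falls outside the rule for named clusters and was named after its values were seen, read 59.5% and 80.5%. In the double knockdown these last 3 stood at 73.5%, 72.3% and 81.7%, each above its Dnmt3a level.

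The Dnmt3a differences could be read on each strand. In the 234 members with both strands read, the plus strand was lower by 10 points or more in 61. The minus strand was lower too in 60 of those (98.4%), near the 220 of all 234 (94.0%). It passed 10 points in 31 of the 61 (50.8%) and in 59 of all 234 (25.2%), and its median difference was -10.2 points in the 61 and -6.51 in all 234. Past 20 points there were 4 on the plus strand, 0 of which passed it on the minus strand as well. The difference had r of 0.371 between strands.

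The double knockdown stood nearer to control than the single Dnmt3a knockdown. Members averaged -4.05 points from control (SD 3.67 over clusters, 0.57 over autosomes), lower in 1138 of 1290 (88.2%) and on all 19 autosomes. Of dense clusters 87.1% were lower, and of all 22524 clusters 66.9%. The double knockdown exceeded the Dnmt3a knockdown by 2.35 points (SD 0.42 over autosomes), in 927 members (71.9%) and on all 19 autosomes. At 20 points 0 members were lower, where the call took 1.29% of all clusters, and 0 were higher (0.00444%). At 10 points 72 were lower, where the call took 8.80% of all clusters. The largest fall, at chr5:112550583-112550689, was to 70.3% in the double knockdown, against 89.8% in control. These libraries share the control, and how far each shRNA lowered its target is not known here, so the difference between the single and the double knockdown cannot be told apart from a difference in knockdown.

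The Dnmt3b library was close to control. Members differed by 0.31 points (SD 3.05 over clusters, 0.37 over autosomes), higher on 15 autosomes and lower on 4, and higher in 703 members (54.5%). Of dense clusters 51.0% were higher, and of all 22524 clusters 47.0%. The mean difference of the members was smaller than its SD over autosomes, and it changed sign when the level limit was raised to 90%. At 20 points 0 members were lower (0.0222% of all clusters) and 0 higher (0.0799%). The largest gain was at chr9:120723881-120723996, a cluster picked after its values were seen, with 95.04% in the Dnmt3b knockdown, 91.0% in the Tet1 and Tet2 knockdown and 75.2% in control, the lowest control level of all members.

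In the Tet1 and Tet2 library the members were slightly higher than in control. The mean difference was 1.22 points (SD 3.41 over clusters, 0.38 over autosomes), higher on all 19 autosomes and in 840 members (65.1%). Over all 22524 clusters it was 1.26 points, positive on all 19 autosomes, with 59.7% of clusters higher. Of dense clusters 62.5% were higher, so the shift was not particular to members. The Tet1 and Tet2 library was the highest of the 5 other than Dnmt1 in 628 members (48.7%). At 20 points 0 members were lower (0.0178% of all clusters) and 0 higher (0.222%). The largest gain, chosen after its values were seen, was at chr9:103114069-103114171, with 94.5% in the Tet1 and Tet2 knockdown, 92.6% in the Dnmt3b knockdown and 77.1% in control. Both of these chromosome 9 clusters were picked for gains over the same control library where it was low, so high levels in the other libraries follow from the choice and the level rule. Clusters at 20% to 80%, which have more room to rise, were 5.11 points higher than control.

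The bases next to the CpG went with the level. In the Dnmt1 library, member cytosines averaged 25.01% where C followed the CpG (n = 1233 cytosines), against 21.1% where A followed, 21.04% for G and 20.8% for T. In control the same sets averaged 90.5%, 87.6%, 88.7% and 87.1%. For Dnmt3a the difference from control was -8.16 points where T followed the CpG and -7.94 where A preceded it. The other bases gave -5.94 to -6.30 after the CpG and -5.96 to -6.63 before it. Dense clusters had the same base at each of these extremes after the CpG, with 26.7% in the Dnmt1 library where C followed and -8.40 points for Dnmt3a where T followed. Cytosines of CCGG were 38.3% of member cytosines, against 26.4% in dense clusters, and read 21.3% in the Dnmt1 library, against 21.9% for the rest.

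High methylation reached past the ends of the members. The rule joins neighbours at most 100 bp apart, so every flanking cytosine listed in all 6 libraries lay more than 100 bp from the member. Cytosines within 250 bp that were listed in all 6 libraries and lay in no methylated cluster (n = 253) averaged 22.3% in the Dnmt1 knockdown, 79.1% in Dnmt3a, 80.7% in the double, 86.4% in Dnmt3b, 87.7% in Tet1 and Tet2 and 86.1% in control. From 501 to 1000 bp (n = 374) the series was 15.8%, 60.7%, 63.1%, 71.1%, 72.5% and 69.7%. These cytosines took no part in the rule, and they kept the order of the libraries seen inside. The share of flanking cytosines at 80% or more in control was 81.8% within 250 bp, 69.7% from 251 to 500 bp and 51.9% from 501 to 1000 bp.

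**Figure D4:**
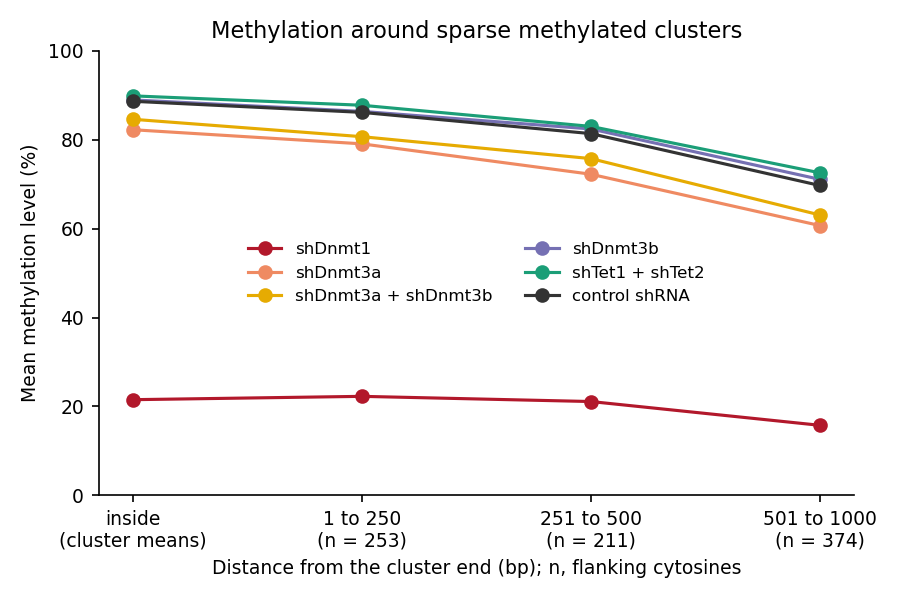
Mean methylation level (%, vertical axis) inside the members and of flanking cytosines at 3 distances from the cluster end (bp, horizontal axis), 1 line per library. The Dnmt1 line stays between 15.8% and 22.3%, and the other lines fall together with distance, to 60.7% for Dnmt3a and 69.7% for control.

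Members and dense clusters lay at similar distances from clusters of low methylation. The nearest cluster below 20% lay at a median of 56.4 kb from members, within 5 kb for 72 (5.58%) and within 50 kb for 596 (46.2%). For dense clusters the median was 58.2 kb, with 46.8% within 50 kb. The nearest other methylated cluster was farther from members, at a median of 169 kb, and from dense clusters, at 170 kb. There were 17197 clusters below 20% but 2389 methylated clusters, so the distances to these classes cannot be compared directly. Members within 50 kb of a cluster below 20% averaged 19.4% ± 6.7 in the Dnmt1 library. Those beyond averaged 23.3% ± 9.2, with control at 87.9% and 89.3%. Their Dnmt3a differences were -7.16 and -5.74 points. Dense clusters showed the same order, with Dnmt1 levels of 20.8% within 50 kb and 25.6% beyond. By chromosome the members were 3.68% (chromosome 19) to 7.82% (chromosome 18) of the clusters, and their mean Dnmt1 level ran from 19.8% on chromosome 17 to 25.3% on chromosome 13.

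The 5 members at annotated gene starts had Dnmt1 levels of 14.7% to 22.8%, near the mean of the class. Tex101 (mm9 chr7:25456972-25457097) averaged 19.2% in the Dnmt1 knockdown, 79.5% in Dnmt3a, 87.8% in the double, 89.98% in Dnmt3b, 86.3% in Tet1 and Tet2 and 85.8% in control. Its cytosines lay from -28 to 97 bp around the gene start. Of the 6, the lowest in the Dnmt1 library read 8.7%, at 97 bp, and the highest read 31.2%, at -21 bp.

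The largest Dnmt3a difference among the 5 was at 4930594O21Rik (mm9 chr3:37512573-37512801). It averaged 22.8% in the Dnmt1 knockdown, 69.0% in Dnmt3a, 83.4% in the double, 87.6% in Dnmt3b, 90.9% in Tet1 and Tet2 and 85.8% in control. The cytosine at -79 bp differed most, with 37.9% in the Dnmt3a knockdown, 84.8% in the double and 78.9% in control. The other 6 cytosines were each lower too, at 66.7% to 83.5% in the Dnmt3a knockdown, against 83.3% to 92.7% in control.

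The remaining 3 had less in common outside the Dnmt1 library. Gm40968 (mm9 chr13:58898760-58898884) averaged 18.1% in the Dnmt1 knockdown, 73.1% in Dnmt3a and 82.0% in control. Gm41358 (mm9 chr15:79139142-79139263) averaged 14.7%, 85.9% and 85.8% in these libraries. LOC108167659 (mm9 chr1:93909323-93909468) averaged 22.7%, 87.0% and 90.8%. The Dnmt1 level was low along each cluster, while the Dnmt3a level differed from control by 0.08 points at Gm41358 and was lower at the other 4. In Gm41358 the neighbouring CpGs at -95 and -93 bp, printed as CGCG above, read 14.1% and 16.5% in the Dnmt1 knockdown, 95.2% and 97.6% in Dnmt3a and 84.4% and 89.1% in control.

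**Figure D5:**
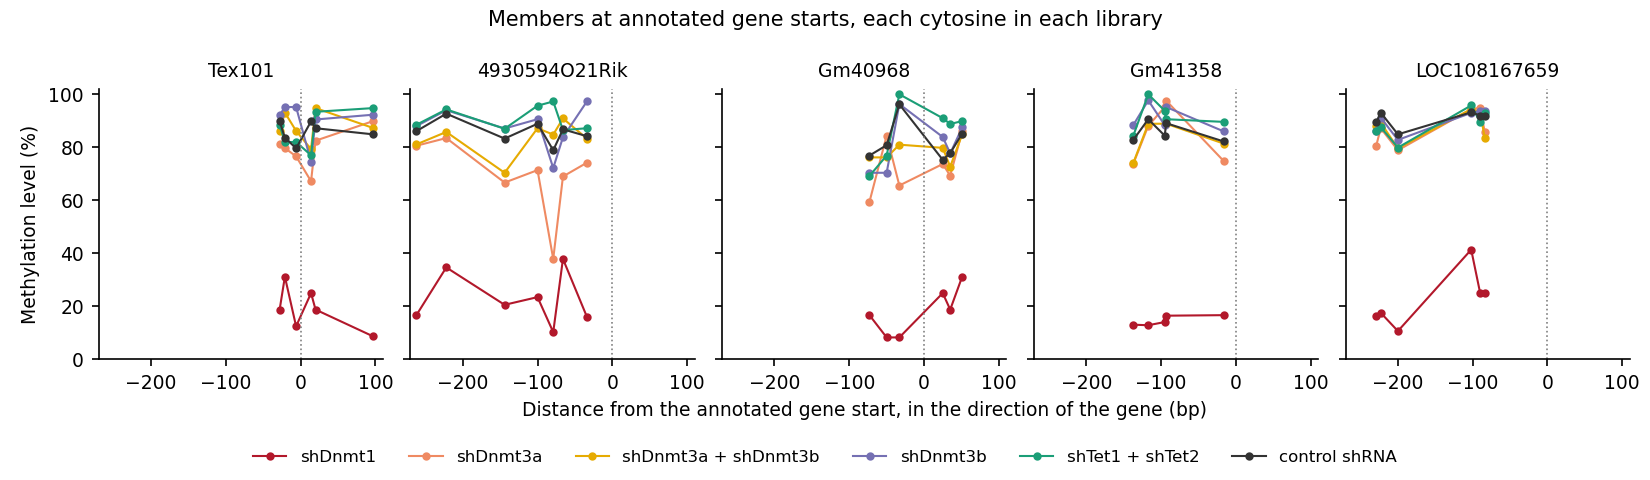
Methylation level (%, vertical axis) of each cytosine of the 5 members at annotated gene starts, by distance from the start in the direction of the gene (bp, horizontal axis), 1 line per library. The Dnmt1 line lies below all others at each cytosine, and the Dnmt3a line dips to 37.9% at -79 bp of 4930594O21Rik.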

How the data were processed

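RRBS levels of 6 libraries were used as deposited. The values are methylation fractions from 0 to 1 per cytosine and strand, which the authors rounded to 3 decimals, without counts. They were multiplied by 100 into percent. CASAVA 1.8, Bismark 0.10.1 and mm9 are named per the submitters' processing notes, with no roles. Coverage minimum, trimming and duplicate handling were not given in the sources used here. The depth is therefore unknown, and no counting interval can be given. Each library listed 445016 (Dnmt1) to 604227 (Tet1 and Tet2) cytosines, and 67 to 135 per library had no level and were left out. The title of the Dnmt1 sample reads Dnmt1a, and its treatment label was followed. Mitochondrial cytosines (n = 94) averaged 0.066% in the Dnmt1 library and 0% in control.

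Python 3.11.15, pandas 2.3.3, NumPy 2.4.6 and matplotlib 3.10.9 were used. A cluster's level is the unweighted mean over its cytosines, and positions are 1-based. The cluster rule was tested on simulated data. The 5 context letters of at least 5 cytosines, with their spacing and strand, were matched to RefSeq windows of the same chromosome, and chromosome 18 has no windows in that table. For the 5 members, the distance to a neighbouring matched cluster was the same in both builds. Clusters named are the 5 highest and lowest in the Dnmt1 library, up to 3 largest called falls and gains per knockdown, the 3 with most cytosines and any tied with them, those next to each limit and those matched to a gene. The members, lists and tests were chosen with earlier results of these data known. With 1 library per group no test was run, and gaps, cytosine numbers, density and level limits, call sizes, strand merging and sets of libraries were varied.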

Additional observations from a re-analysis of the deposited data

How the results depend on the processing

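No paired analysis was possible because each group has 1 library, and for the same reason no library could be left out of a group. Of 179 values recomputed under alternatives, 135 stayed within the SD over autosomes (means) or within 1.5 times (counts), 42 moved further and 2 changed sign. What moved most was which clusters counted. The 1290 members became 197 with gaps of at most 50 bp, 1965 with 300 bp, 2785 with at least 3 cytosines, 35 with at least 10, 583 below 4 per 100 bp, 265 at a level of 90%, and 2184 when cytosines could be absent from the Dnmt1 library. Members with at least 30% in the Dnmt1 library (150) were then 24, 232, 265, 8, 65 and 80 for the first 6 of these. Those under 10% (40) were 5 with 50 bp, 151 with 3 cytosines, 3 with 10, 21 below 4 per 100 bp, 98 at a level of 70% and 1 at 90%. The Dnmt1 level (21.5%) was 24.1% with 10 cytosines, 19.98% at a level of 70% and 28.0% at 90%, and its difference from control (-67.1 points) was -63.0 with 10 cytosines and -64.7 at 90%. The Dnmt3a difference (-6.40) was -6.91 with 10 cytosines, -8.08 at 70% and -3.14 at 90%. The double knockdown (-4.05) gave -5.08 at 70% and -2.16 at 90%, and Tet1 and Tet2 (1.22) gave 1.92 with 10 cytosines, 1.87 at 70% and 0.30 at 90%. The level limits shift these by construction, since they choose clusters on the same libraries. The signs that changed were the Dnmt3b difference (0.31), -0.10 at a level of 90%, and the Dnmt1 level of sparse minus dense clusters (-1.81), 2.06 with at least 10 cytosines, where 35 members remain. The cause was not tested. Of the 1965 members with 300 bp gaps, 1962 were called lower for Dnmt1, 8 lower for Dnmt3a and 1 lower for the double knockdown. The share of all clusters called was not computed for that gap, so nothing is read from these counts. With the main rule and a call at 10 points, 267 members were lower for Dnmt3a, 72 lower and 1 higher for the double knockdown, 4 higher for Dnmt3b, and 7 lower and 11 higher for Tet1 and Tet2 (of all 22524 clusters, 8 were higher for the double knockdown, 312 higher for Dnmt3b, and 48 lower and 675 higher for Tet1 and Tet2). At 30 points 0 members were lower for Dnmt3a, where the call took 0.377% of all clusters. In 3 alternatives added after the data were seen, leaving out members with a recurring pattern gave a Dnmt1 level of 21.2%, leaving out cytosines at 100% in all 6 libraries gave 21.3%, and weighting dense clusters to the level bins of the members gave a difference of -0.77 points.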

Other observations

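Inside the spans of the members, 327 cytosines were listed in some but not all libraries. Of these, 110 were missing from the Dnmt1 library alone and averaged 89.0% in control, as high as the members. Another 28 were listed in both the Dnmt1 and the control library but missing elsewhere, and averaged 14.6% in the Dnmt1 knockdown and 77.7% in control.

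Cytosine listing left 10 members with no cytosine in CCGG. They averaged 42.2% in the Dnmt1 library (range 35.2% to 49.8%) and 86.0% in control, and 9 of them were the members at the loci on chromosomes 9 and 2 described above. The members with exactly 2 cytosines in CCGG, 1055 in all, averaged 21.4% in the Dnmt1 library and 88.6% in control.

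The differences from control of the single knockdowns, -6.40 points for Dnmt3a and 0.31 points for Dnmt3b, added up to -6.09 points per member, while the double knockdown gave -4.05 points. The double knockdown was above the sum in 861 of 1290 members (66.7%) and on all 19 autosomes, by a mean of 2.04 points (SD 0.54 over autosomes). These values share the control library, and the sum was computed for the members only.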
